A study of Mus musculus with 48 samples.

Results

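A set of 9 genes of the switch to fat as a fuel during fasting were followed: Plin4, Pdk4, Angptl4, Pnpla2, Cpt1a, Ucp2, Acadl, Hadha and Ppara. They were taken from the count table by symbol, as genes of lipid droplets, lipolysis and mitochondrial fatty acid oxidation known to respond to fasting. These are 9 of the 56893 genes in the table, and all 9 passed the filter on low counts, which 17352 genes passed. Polyadenylated RNA had been sequenced from 1 brain hemisphere of each of 48 adult mice, aged 5.5 to 8.5 months, and the mice formed 12 groups of 4 by their sex, their genotype and how they had been fed. The control mice were Grin1fl/fl, apart from female control unrestricted replicate 2, which the labels give as Grin1fl/+. Knockout mice were Aldh1a1+/P2A-CreERT2::Grin1fl/fl, in which an inducible Cre is made from the Aldh1a1 locus, so the deletion is limited to cells that express Aldh1a1 while the whole hemisphere was sequenced. Unrestricted mice had been housed alone on chow for about 2 days, restricted mice were taken after 2 nights of food restriction with chow given between them, and refed mice had then had 3 days of free access to food from a feeding device. All mice had been moved to single cages. All were killed with carbon dioxide.

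In a fasting mammal, adipose tissue releases fatty acids through the lipase ATGL, the liver oxidises them and makes ketone bodies, and other tissues lower their use of glucose. The nuclear receptor PPAR-alpha, encoded by Ppara, activates many of these genes in liver and muscle when fatty acids rise, and glucocorticoids act on several of them too. The brain relies mainly on glucose and, in a fast, on ketone bodies, and within it astrocytes are the cells best known for fatty acid oxidation.

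Libraries held between 7574827 and 16185373 estimated counts, with a median of 10515486. Levels are given as CPM, counts scaled to library size with TMM factors, a log2 change comes from a quasi-likelihood model over all 48 libraries, and a gene is called at a Benjamini-Hochberg adjusted p under 0.05 over the 17352 genes. Aldh1a1, the gene that carries the recombinase, was lower in knockouts by 0.92 ± 0.05 (SE) on the log2 scale (edgeR adjusted p = 1.42e-16), with ranges of 138.8 to 241.7 CPM in 24 controls and 79.0 to 147.1 CPM in 24 knockouts. Grin1 did not pass the test (log2 difference 0.02 ± 0.04, edgeR adjusted p = 1.0), at medians of 343.1 and 350.8 CPM. A library that stood apart was male control refed replicate 1, in which 7 skeletal muscle markers (without Pvalb, which neurons also express) summed to 5071 CPM. Female control restricted replicate 2 had 335 CPM of them, and the other 46 libraries had at most 25.1 CPM. Female knockout unrestricted replicate 2 had 7.78% of its counts in the ribosomal RNA gene Rn18s-rs5, and the lowest TMM factor, 0.913. Male knockout restricted replicate 3 had 1.92% in that gene, and the remaining libraries at most 0.398%. In whole-hemisphere RNA, fewer cells of a type and less RNA per cell cannot be told apart.

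The stretches of 250 bases before the start of transcription are shown for the 4 called genes with an entry in RefSeq's promoter table (build GRCm38.p6) and for Cpt1a, the only one of the 8 genes with an entry that held a searched motif. Plin4 is at chr17:56109783-56110032 (minus strand), Pnpla2 at chr7:141454938-141455187 (plus strand), Pdk4 at chr6:5496279-5496528 (minus strand), Ucp2 at chr7:100493108-100493357 (plus strand) and Cpt1a at chr19:3323051-3323300 (plus strand). Capitals mark the motif in Cpt1a.
Plin4: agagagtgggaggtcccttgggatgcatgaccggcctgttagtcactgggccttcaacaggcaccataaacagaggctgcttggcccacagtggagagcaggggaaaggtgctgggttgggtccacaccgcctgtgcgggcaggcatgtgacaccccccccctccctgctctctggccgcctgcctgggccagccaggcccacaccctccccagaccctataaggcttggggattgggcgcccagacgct
Pnpla2: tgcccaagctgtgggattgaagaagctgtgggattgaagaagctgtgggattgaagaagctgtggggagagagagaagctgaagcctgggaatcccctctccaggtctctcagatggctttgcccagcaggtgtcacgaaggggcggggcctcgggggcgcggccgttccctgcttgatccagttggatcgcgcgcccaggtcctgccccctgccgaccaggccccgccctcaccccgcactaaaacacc
Pdk4: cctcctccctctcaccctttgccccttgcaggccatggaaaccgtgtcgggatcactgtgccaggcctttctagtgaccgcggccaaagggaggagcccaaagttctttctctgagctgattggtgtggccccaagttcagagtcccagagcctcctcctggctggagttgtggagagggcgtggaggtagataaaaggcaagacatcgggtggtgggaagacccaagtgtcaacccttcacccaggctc
Ucp2: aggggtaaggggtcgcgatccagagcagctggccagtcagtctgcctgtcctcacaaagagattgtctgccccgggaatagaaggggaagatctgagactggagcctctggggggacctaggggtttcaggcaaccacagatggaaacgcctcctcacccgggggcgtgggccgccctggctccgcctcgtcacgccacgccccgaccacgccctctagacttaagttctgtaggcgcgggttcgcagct
Cpt1a: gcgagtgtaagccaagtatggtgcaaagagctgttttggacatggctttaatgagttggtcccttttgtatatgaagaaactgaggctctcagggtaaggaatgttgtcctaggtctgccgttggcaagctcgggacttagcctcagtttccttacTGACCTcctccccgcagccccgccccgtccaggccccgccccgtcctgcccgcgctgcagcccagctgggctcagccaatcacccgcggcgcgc

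Windows of 300 bases, reaching from 250 before to 50 after the start, were searched on both strands. None of the 8 windows held the direct repeat bound by PPAR-RXR pairs (in 0.0396% of 32851 windows of all genes), a looser form of it (0.381%), the glucocorticoid receptor palindrome (0.475%), the forkhead motif TGTTTAC (3.65%) or the E-box CACGTG (7.15%). A single hexamer of the nuclear receptor repeat, AGGTCA, occurred in the Cpt1a window on the other strand, at bases -94 to -89 from the start, and in 16.3% of all windows. The steroid receptor hexamer AGAACA, in 19% of all windows, was not found in the 8. AGGTCA makes up both arms of the direct repeat, and both hexamers were added after the first search. These matches describe letters in short windows and say nothing of where a factor binds.

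Of the 9 genes, 5 rose after food restriction, none fell and 4 did not pass the test. Among all genes tested, 15.2% were called in this comparison and 7.31% rose. The 5 were Plin4, Pnpla2, Angptl4, Pdk4 and Ucp2, which act at the lipid droplet, in lipolysis, in the sparing of glucose and in the mitochondrial membrane. The enzymes of fatty acid entry and beta-oxidation, Cpt1a, Acadl and Hadha, and the receptor gene Ppara, gave log2 changes between -0.04 and 0.14. The median signed change over the 9 genes was 0.58, against 0.00 over all genes tested. Regardless of sign, the median size of a change among called genes was 0.23. The 9 genes were chosen with earlier results of these data known, so these counts and medians only describe them.

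**Figure D1:**
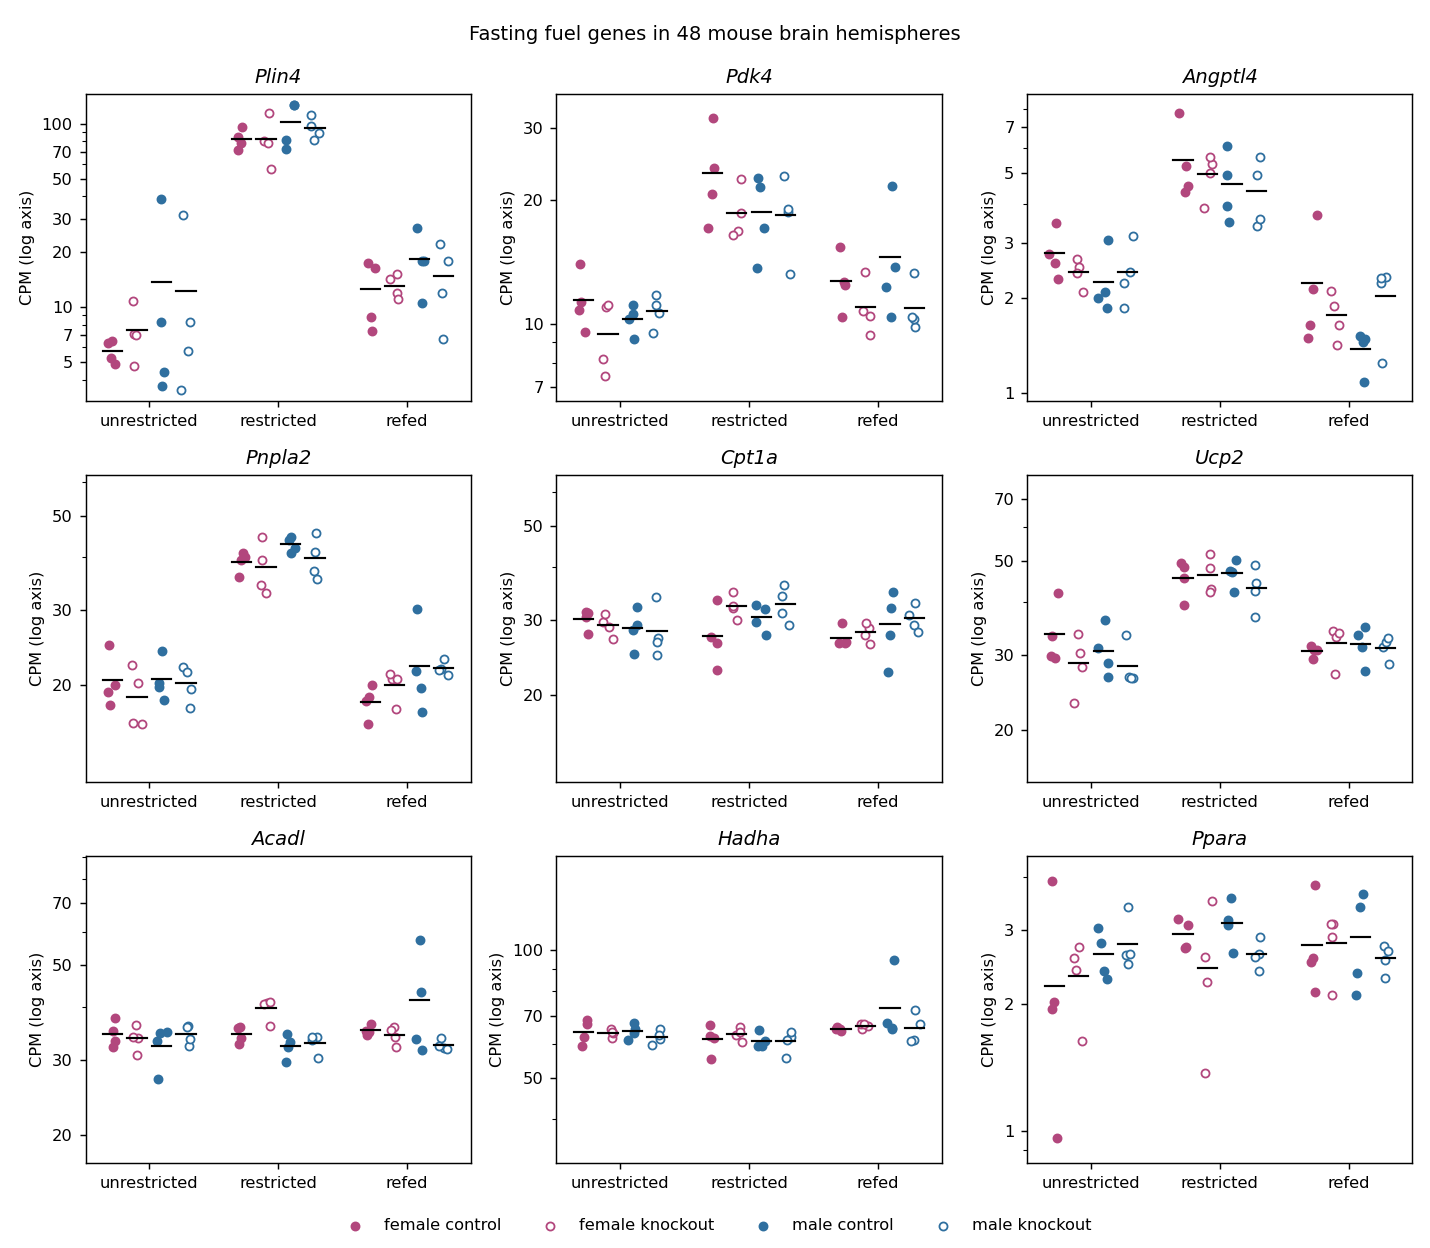
Expression of the 9 genes in every library, in CPM on a log axis, by feeding state; filled circles are controls, open circles knockouts, colours give the sex and black bars the mean of 4 mice. Restricted libraries of Plin4 lie between 56.3 and 126.9 CPM, above every unrestricted and refed library, while those of Cpt1a, Acadl, Hadha and Ppara lie among the others.

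Plin4 encodes perilipin 4, a coat protein of small lipid droplets. It lies on chromosome 17 at 56406617 to 56416931 on the minus strand (GRCm39). Its level ran from 3.51 CPM through a median of 6.41 to 38.7 CPM in the 16 unrestricted mice, and from 56.3 through 83.2 to 126.9 CPM in the 16 restricted mice. All 16 restricted libraries lay above all 16 unrestricted ones, as they did for 0.242% of the genes tested. The change was 3.30 ± 0.23 on the log2 scale, a 9.82-fold increase (edgeR adjusted p = 1.36e-14). Only 1 of the 17352 genes had a higher log2 change.

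A pair of unrestricted mice set the upper end of that range. Unrestricted males had 38.7, 3.70, 8.22 and 4.40 CPM of Plin4 in the controls and 31.5, 8.30, 3.51 and 5.75 CPM in the knockouts. The first mouse of each stands apart from the other 14 unrestricted mice, which had at most 10.8 CPM. Both carry low library numbers (10 and 9), and no other unrestricted male has a number up to 28. In the same 2 libraries Fkbp5, a gene induced by glucocorticoids, was at 38.97 and 38.4 CPM, against 21.2 to 31.5 CPM in the other 14. Fkbp5 followed Plin4 most closely over the 48 libraries (r = 0.956), so this is not independent of Plin4. Of the next 2 genes by that measure, Mfsd2a was at 19.1 and 12.6 CPM, against 9.35 to 13.9 CPM in the other 14. Adipor2 was at 101.7 and 88.7 CPM, against 61.5 to 89.1 CPM, so in the knockout mouse both lay within the others' range. Cdkn1a, a cell cycle inhibitor gene, was at 11.4 and 12.95 CPM there, within the other mice's range of 8.14 to 15.5 CPM. Without these 2 libraries the Plin4 change was 3.89 (edgeR adjusted p = 1.55e-21), over 1.5 times higher as a fold.

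The separation of Plin4 also held within each set of library numbers. Among libraries numbered up to 28, the 5 unrestricted mice had 4.77 to 38.7 CPM and the 7 restricted mice 56.3 to 126.9 CPM. Among those from 29, the 11 unrestricted mice had 3.51 to 8.30 CPM and the 9 restricted mice 71.3 to 97.0 CPM. Exons of Plin4 share 3124 bases in all with exons of Hdgfl2 on the opposite strand, and the strand setting of the counting is not given in the sources used here. Hdgfl2 rose by 0.19 ± 0.04 (edgeR adjusted p = 0.00162), from a median of 74.5 to 89.4 CPM, and how reads were divided between the pair was not tested.

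Pnpla2 encodes adipose triglyceride lipase (ATGL), which makes the first cut in stored triglyceride. It lies on chromosome 7 at 141034404 to 141040656 on the plus strand. Unrestricted mice had 16.3 CPM at the lowest, 19.9 at the median and 24.9 at the highest, and restricted mice had 32.9, 40.5 and 45.7 CPM. Every restricted library was above every unrestricted one. The increase was 1.99-fold (log2 change 0.99 ± 0.06, edgeR adjusted p = 5.53e-17), and it was the sixth smallest p-value of all genes tested. By sex and genotype, its 4 folds lay between 1.897 and 2.07.

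Angptl4 encodes a secreted inhibitor of lipoprotein lipase, a known PPAR target that fasting raises in other tissues. It lies on chromosome 17 at 33992724 to 34000804 on the minus strand. It was a low gene here, with 13 to 83 counts per library. The levels were 1.86, 2.41 and 3.46 CPM (lowest, median, highest) in unrestricted mice and 3.40, 4.91 and 7.79 CPM in restricted mice, so that the ranges overlapped at their ends. The increase was 1.98-fold (log2 change 0.98 ± 0.11, edgeR adjusted p = 9.41e-09).

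Pdk4 encodes pyruvate dehydrogenase kinase 4, which holds pyruvate back from oxidation. It lies on chromosome 6 at 5483097 to 5496339 on the minus strand. Its levels were 7.43, 10.7 and 14.02 CPM in unrestricted mice and 13.2, 18.9 and 31.8 CPM in restricted mice, with an overlap at the ends of the ranges. The increase was 1.88-fold (log2 change 0.91 ± 0.09, edgeR adjusted p = 6.99e-10). The highest restricted value belongs to female control restricted replicate 2, the library with 335 CPM of muscle markers. Without the 2 libraries over 100 CPM of these markers the change was 0.86 (edgeR adjusted p = 7.53e-11).

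Ucp2 encodes a carrier of the inner mitochondrial membrane that exports metabolites and is linked to the use of fatty acids. It lies on chromosome 7 at 100142055 to 100151227 on the plus strand. Unrestricted mice had 23.2, 29.7 and 42.05 CPM and restricted mice 36.9, 46.3 and 51.98 CPM. The increase was 1.499-fold (log2 change 0.58 ± 0.05, edgeR adjusted p = 4.17e-11). The highest unrestricted value, 42.05 CPM, is that of the Grin1fl/+ mouse, and the next was 36.3 CPM.

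Within single combinations of sex and genotype, all 4 restricted mice lay above all 4 unrestricted mice in 4 of 4 combinations for Plin4, Pnpla2, Angptl4 and Pdk4. The same was true of 0.444% of the genes tested. Ucp2 separated in 3 of 4 combinations, with an overlap in female controls. In the plot of change against expression, Plin4 stands far above genes of like abundance and the other 4 called genes lie above most genes.

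**Figure D2:**
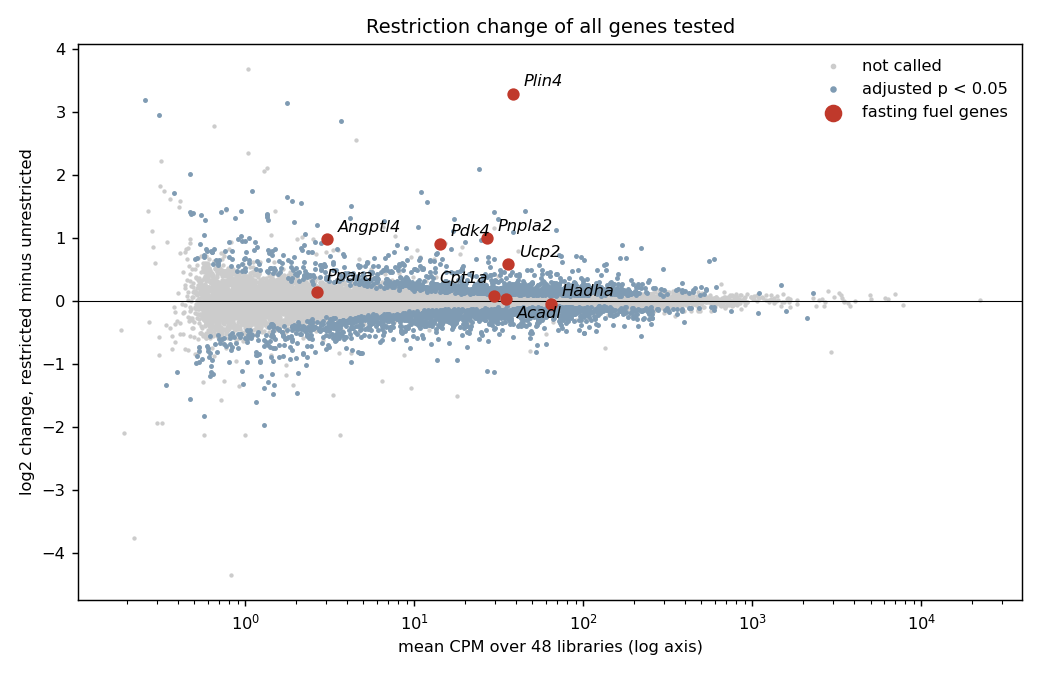
Change after restriction of each of 17352 genes (vertical axis, log2, restricted minus unrestricted) against mean CPM over 48 libraries (log axis); called genes are blue, others grey, and the 9 genes red. Plin4 stands at 3.30, Pnpla2, Angptl4 and Pdk4 between 0.91 and 0.99, Ucp2 at 0.58, and the other 4 between -0.04 and 0.14.

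The genes of fatty acid entry and oxidation showed no change that passed the test over both sexes. Cpt1a, the carnitine palmitoyltransferase that admits long-chain fatty acids to mitochondria (chromosome 19, 3371853 to 3437996, plus strand), had 24.9, 29.03 and 34.03 CPM in unrestricted mice and 22.9, 31.5 and 36.2 CPM in restricted mice. Its log2 change was 0.08, with a 95% interval from -0.02 to 0.18 (edgeR adjusted p = 0.342). In males, without the 2 unrestricted males described above, Cpt1a rose by 0.22 ± 0.07 and passed the test (edgeR adjusted p = 0.0423). Acadl, the long-chain acyl-CoA dehydrogenase (chromosome 1, 66868267 to 66902633, minus strand), had 27.05, 33.9 and 37.7 CPM in unrestricted mice and 29.6, 33.9 and 41.1 CPM in restricted mice. The interval of its change was -0.06 to 0.14.

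Hadha, the alpha subunit of the mitochondrial trifunctional protein (chromosome 5, 30323302 to 30360187, minus strand), changed by -0.04, with an interval from -0.12 to 0.03. For these 3 enzymes the intervals lie below the change of Ucp2, the smallest called among the 9. Ppara (chromosome 15, 85618656 to 85687067, plus strand) had only 8 to 50 counts per library. Its levels were 0.96, 2.53 and 3.91 CPM in unrestricted mice and 1.37, 2.73 and 3.57 CPM in restricted mice. The interval of its change, -0.11 to 0.39, leaves room for a change of up to that size.

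Refeeding was compared with restriction, using the same restricted libraries as above, so that the changes are given side by side and not as independent evidence. The 5 genes that rose after restriction fell after 3 days of refeeding, and Hadha rose. Of all genes tested 15.2% were called, 6.79% lower and 8.38% higher. Plin4 fell 6.21-fold, to 6.67 CPM at the lowest, 14.6 at the median and 26.99 at the highest (log2 change -2.63 ± 0.22, edgeR adjusted p = 2.51e-12). Angptl4 fell by 1.41 ± 0.12 on the log2 scale, to 1.08, 1.64 and 3.67 CPM (edgeR adjusted p = 2.51e-12).

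Pnpla2 fell by 0.95 ± 0.06 on the log2 scale, to 16.19, 20.7 and 30.2 CPM (edgeR adjusted p = 2.96e-16). Pdk4 fell by 0.68 ± 0.09, to 9.37, 11.5 and 21.8 CPM (edgeR adjusted p = 5.05e-07). Ucp2 fell by 0.53 ± 0.05, to 27.2, 31.5 and 35.05 CPM (edgeR adjusted p = 6.44e-10). All 16 refed mice lay below all 16 restricted mice for Plin4, Pnpla2 and Ucp2, as for 0.167% of the genes tested. Angptl4 and Pdk4 overlapped, Pdk4 through both male combinations.

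Hadha rose by 0.13 ± 0.04 on the log2 scale (edgeR adjusted p = 0.0175), from 55.4, 62.3 and 66.7 CPM to 61.1, 65.8 and 94.6 CPM. The value of 94.6 CPM is that of male control refed replicate 1, the library with 5071 CPM of muscle markers, and no other library exceeded 72.1 CPM. Without it the change was 0.09 (edgeR adjusted p = 0.0391). With a block for library numbers it was 0.12 (edgeR adjusted p = 0.0786), which ends the call, as does fitting without a filter (adjusted p = 0.0513). Hadhb, the partner subunit on the opposite strand, which overlaps Hadha, rose by 0.15 ± 0.04 (edgeR adjusted p = 0.0127), and so did Garem2, which also overlaps it, by 0.35 ± 0.07 (edgeR adjusted p = 0.000235). In refed mice Hadhb had a median of 81.5 CPM and reached 118.7 CPM. Its highest values were 84.2 CPM in restricted and 87.5 CPM in unrestricted mice, whose median was 81.1 CPM. Whether the rise of Hadhb depends on a single library was not tested. Cpt1a, Acadl and Ppara gave log2 changes of -0.10, 0.04 and 0.00 and were not called, although Cpt1a fell by 0.17 with the block (edgeR adjusted p = 0.0314).

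Refed and unrestricted mice were then compared directly. None of the 9 genes was called, against 0.738% of all genes (0.467% higher and 0.271% lower), and 4 of the 9 had an unadjusted p under 0.05 in edgeR's test. DESeq2 also called none. Angptl4 was lower in refed than in unrestricted mice by 0.43 ± 0.13 on the log2 scale (edgeR unadjusted p = 0.00156, adjusted p = 0.104). Plin4 was higher by 0.66 ± 0.26 (adjusted p = 0.254), with medians of 14.6 and 6.41 CPM. Limma voom with sample weights called both, Plin4 at 1.04 (adjusted p = 0.00718) and Angptl4 at -0.41 (adjusted p = 0.0454).

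The Plin4 difference turned on the 2 unrestricted males described above. Without male control unrestricted replicate 1 it was 0.98 (edgeR adjusted p = 0.00831), without male knockout unrestricted replicate 1 it was 0.93 (edgeR adjusted p = 0.0316), and without both it was 1.25 (edgeR adjusted p = 9.09e-06). With a block for library numbers it was 0.21 (edgeR adjusted p = 0.893). All 16 refed libraries have numbers up to 28. Among the 5 unrestricted libraries with such numbers Plin4 had 4.77 CPM at the lowest, 10.8 at the median and 38.7 at the highest, which spans the refed range. The upper end of that span is the same 2 males, and the 3 females among the 5 had 6.47, 4.77 and 10.8 CPM. The span and the value with the block are therefore not independent of that pair. By combination, refed against unrestricted folds were 2.16 in female controls, 1.77 in female knockouts, 1.34 in male controls and 1.22 in male knockouts. The Angptl4 difference passed the test without female control refed replicate 4 (-0.51, edgeR adjusted p = 0.0341), and without male control refed replicate 2 (-0.45, edgeR adjusted p = 0.0457).

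**Figure D3:**
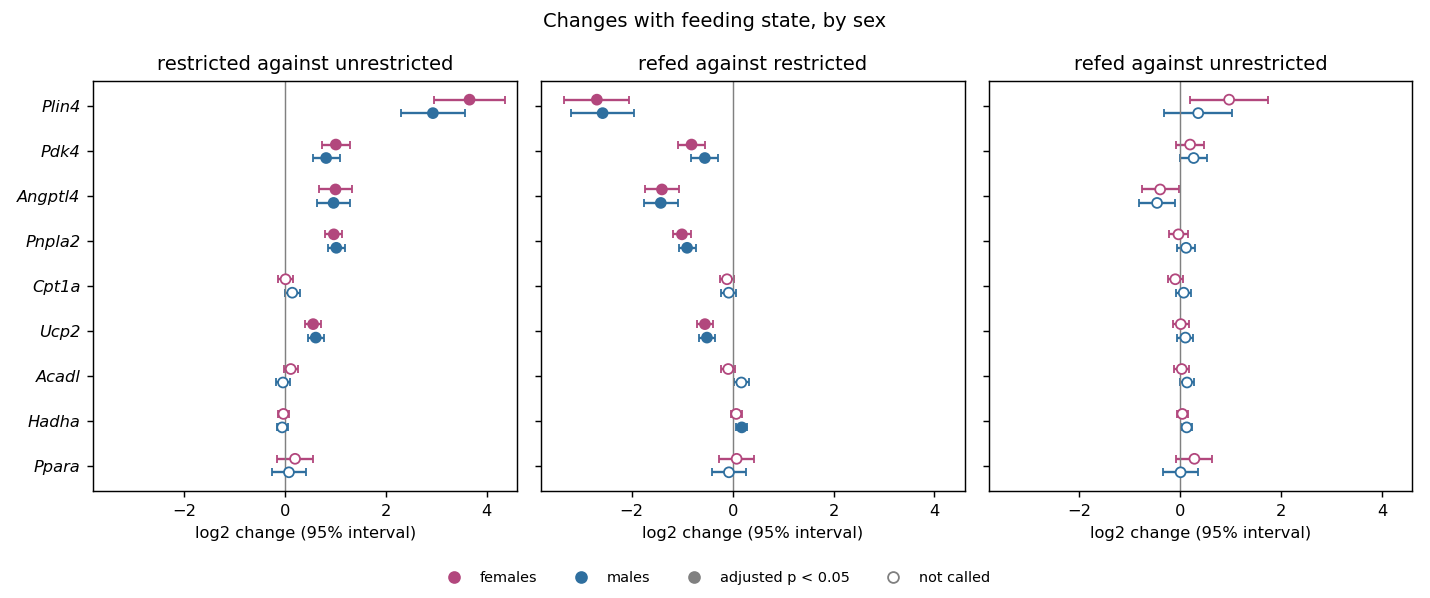
Log2 changes of the 9 genes between feeding states, by sex, with 95% intervals; filled points passed an adjusted p under 0.05. Plin4 shows the widest intervals and changes of 3.66 in females and 2.93 in males after restriction, the latter 4.12 without 2 unrestricted males; no point in the comparison of refed with unrestricted mice is filled.

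Each sex showed the same calls after restriction, though these tests share the model and the members with the pooled test. In females 5 of the 9 genes rose (6.27% of all genes called, 3.02% higher and 3.25% lower) and 5 fell on refeeding (6.1% called, 3.51% higher and 2.59% lower). In males 5 rose (8.28% called, 4.44% higher and 3.83% lower), 5 fell on refeeding (8.33% called, 4.84% higher and 3.49% lower), and Hadha rose by 0.18 (edgeR adjusted p = 0.0253). The Hadha call in males was lost without any 1 of 5 libraries, male control refed replicate 1, male knockout refed replicates 2 and 3, male control restricted replicate 4 and male knockout restricted replicate 4, and Acadl was called as well without male control refed replicate 4. Between refed and unrestricted mice none of the 9 was called in females (0.0403% of all genes called, 0.0346% higher and 0.00576% lower). In females 2 had an unadjusted p under 0.05 in edgeR's test, as did 5.09% of all genes. None was called in males either (0.167% called, 0.127% higher and 0.0403% lower), where 2 had such a p, as did 13.4% of all genes. DESeq2 called none in either sex. The male fall of Pdk4, 0.55 ± 0.13 (edgeR adjusted p = 0.0046), was not called with the block for library numbers or in a fit to the male groups compared alone.

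Plin4 rose by 3.66 ± 0.35 in females and by 2.93 ± 0.31 in males. By combination the folds were 14.3 in female controls, 11.1 in female knockouts, 7.45 in male controls and 7.82 in male knockouts. The difference between sexes in this change was not called (edgeR unadjusted p = 0.129, adjusted p = 0.818). The lower male values rest on the pair of unrestricted males at 38.7 and 31.5 CPM. Without that pair the changes were 3.66 ± 0.22 in females and 4.12 ± 0.24 in males, with folds of 18.4 in male controls and 16.4 in male knockouts, so that the order of the sexes turned round. The difference between sexes was then 0.46 ± 0.33 and was not called either (edgeR adjusted p = 0.712). No gene at all was called for an interaction of sex with feeding state (0% of 17352). Of the 9 only Acadl had an unadjusted p under 0.05 there (edgeR unadjusted p = 0.0424), as did 6.35% of all genes. DESeq2 and limma voom also called none of the 9. Over all feeding states, no gene of the 9 was called between males and females (0.357% of all genes called). Of the 9, 3 had an unadjusted p under 0.05, a level whose share among all genes is not given here. Plin4 was higher in males by 0.53 ± 0.19 (edgeR adjusted p = 0.155), Pnpla2 by 0.12 ± 0.05 (0.193) and Angptl4 lower by 0.20 ± 0.10 (0.275). Plin4 passed this test when no filter on low counts was used, and without the pair of unrestricted males its difference was 0.14 ± 0.13 (edgeR adjusted p = 0.622).

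Knockout and control mice were compared over all combinations, in each sex and in each combination of sex and feeding state. None of the 9 genes was called in any of the 9 comparisons by edgeR, DESeq2 or limma voom. The background was low as well, at 0.00576% of genes over all combinations and 0.00576% in each sex. It was 0.386% in restricted females, 0.225% in refed males, 0.0115% in unrestricted females and 0.00576% in the other 3 combinations. All 39 genes called in refed males were lower in knockouts, with a median size of 4.32 on the log2 scale. The controls there include male control refed replicate 1, with 5071 CPM of muscle markers, and its part in these calls was not tested. Over all mice, log2 differences ran from -0.20 for Pdk4 to 0.05 for Cpt1a. Of all genes tested, 2.48% had an unadjusted p under 0.05 in edgeR's test over all mice and 4.45% in females. Pdk4 had an unadjusted p under 0.05 over all mice (-0.20 ± 0.08, edgeR unadjusted p = 0.0155, adjusted p = 1.0) and in females (-0.27, edgeR unadjusted p = 0.0212).

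In restricted females, knockouts had 29.98 to 34.9 CPM of Cpt1a and controls 22.9 to 33.5 CPM, so that the groups overlapped (log2 difference 0.23, edgeR unadjusted p = 0.0321, adjusted p = 0.341). In refed males 4 of the 9 genes had an unadjusted p under 0.05 in edgeR's test, as did 7.58% of all genes: Acadl, Pdk4, Hadha and Angptl4. Acadl in the controls was 57.2, 43.2, 33.5 and 31.7 CPM, and in the knockouts 33.7, 31.9, 31.8 and 32.4 CPM. The difference of -0.35 ± 0.10 (edgeR adjusted p = 0.196) therefore came with overlapping groups, and its highest control is male control refed replicate 1. The Acadl difference passed the test without male control refed replicate 3 or without replicate 4, fits that kept replicate 1. Without replicate 1 none of the 9 genes was called. Male control refed replicate 1 was also the highest of 48 for Hadha (94.6 CPM), the second highest for Cpt1a (34.96 CPM), the sixth highest for Pdk4 (21.8 CPM) and the lowest for Angptl4 (1.08 CPM). The part of its muscle transcripts in these values was not tested.

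Whether the feeding response differed between genotypes was tested by interactions. No gene was called for the interaction of genotype with feeding state (0% of 17352), where Acadl had the smallest p-value of the 9 (edgeR unadjusted p = 0.0112, adjusted p = 0.973). For the change with restriction alone, the smallest was that of Cpt1a (edgeR unadjusted p = 0.0532). None was called for genotype by sex (0%, smallest Angptl4, edgeR unadjusted p = 0.0451) or for the interaction of genotype, sex and feeding state (0%, smallest Acadl, edgeR unadjusted p = 0.0936).

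**Figure D4:**
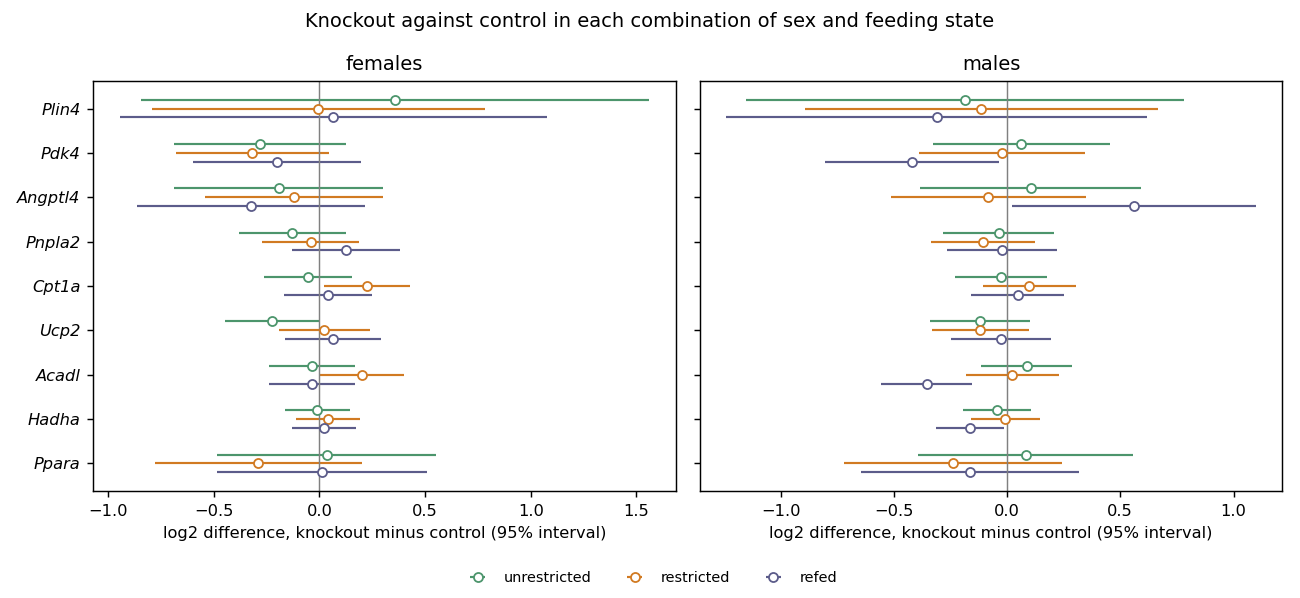
Knockout minus control log2 differences of the 9 genes in each combination of sex and feeding state, with 95% intervals, from 4 mice a group. Most intervals include 0; Acadl in refed males stands at -0.35 and Cpt1a in restricted females at 0.23, and none was called.

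Levels per transcript length (TPM, from the expected counts and the length of each gene's canonical transcript, without TMM factors) put the 9 genes in an order. In unrestricted mice Hadha stood at 37.2 ± 2.88 TPM (mean ± SD, n = 16), Acadl at 31.9 ± 3.12, Pnpla2 at 22.9 ± 3.01 and Ucp2 at 17.9 ± 2.79. Lower down were Cpt1a at 10.4 ± 1.14, Pdk4 at 6.55 ± 0.96, Plin4 at 3.12 ± 3.29, Angptl4 at 1.75 ± 0.30 and Ppara at 1.65 ± 0.46 TPM. Hadha and Acadl, Pnpla2 and Ucp2, Pdk4 and Plin4, and the 3 lowest genes were neighbours whose means lay within their summed SDs. After restriction Pnpla2 led at 45.3 ± 4.996 TPM, followed by Hadha at 35.8 ± 2.69, Acadl at 32.5 ± 2.66, Plin4 at 28.5 ± 7.48 and Ucp2 at 26.6 ± 2.73 TPM. Plin4 moved from the lower end of this order to a mean within summed SDs of those of Hadha, Acadl and Ucp2. Such an overlap of SDs does not test a difference of means.

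Genes whose log2 CPM followed each called gene most closely over the 48 libraries are given as a description, since shared feeding states raise every such correlation. For Plin4 they were Fkbp5 (r = 0.956), Mfsd2a (0.931) and Adipor2 (0.927). After subtracting group means the same genes correlated with Plin4 at 0.70, 0.62 and 0.66. Mfsd2a encodes a lysolipid transporter and Adipor2 a receptor for adiponectin. For Pnpla2 they were Cdkn1a (0.940), Fkbp5 (0.931) and Mfsd2a (0.928), for Ucp2 Pnpla2 (0.892), Pla2g3 (0.881) and Arrdc2 (0.880), and for Pdk4 Errfi1 (0.845), Gjb6 (0.843) and Adipor2 (0.838). For Angptl4 they were Cdkn1a (0.825), Phyhd1 (0.821) and Fam107a (0.807), of which Cdkn1a and Fam107a fell to 0.06 and 0.01 on deviations from group means.

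Among the 16 restricted mice, 10 pairs of the 5 called genes were correlated on log2 CPM. No pair passed Benjamini-Hochberg adjustment. Plin4 and Pnpla2 had the highest Pearson's r, 0.623 (permutation p = 0.0102, adjusted p = 0.102; Spearman's rho = 0.556, permutation p = 0.0278, adjusted p = 0.187). The r was 0.605 without the 2 mice farthest from the median of Plin4. It was 0.874 in the 7 libraries numbered up to 28 and 0.0514 in the 9 from 29, so the relation did not hold within both sets.

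**Figure D5:**
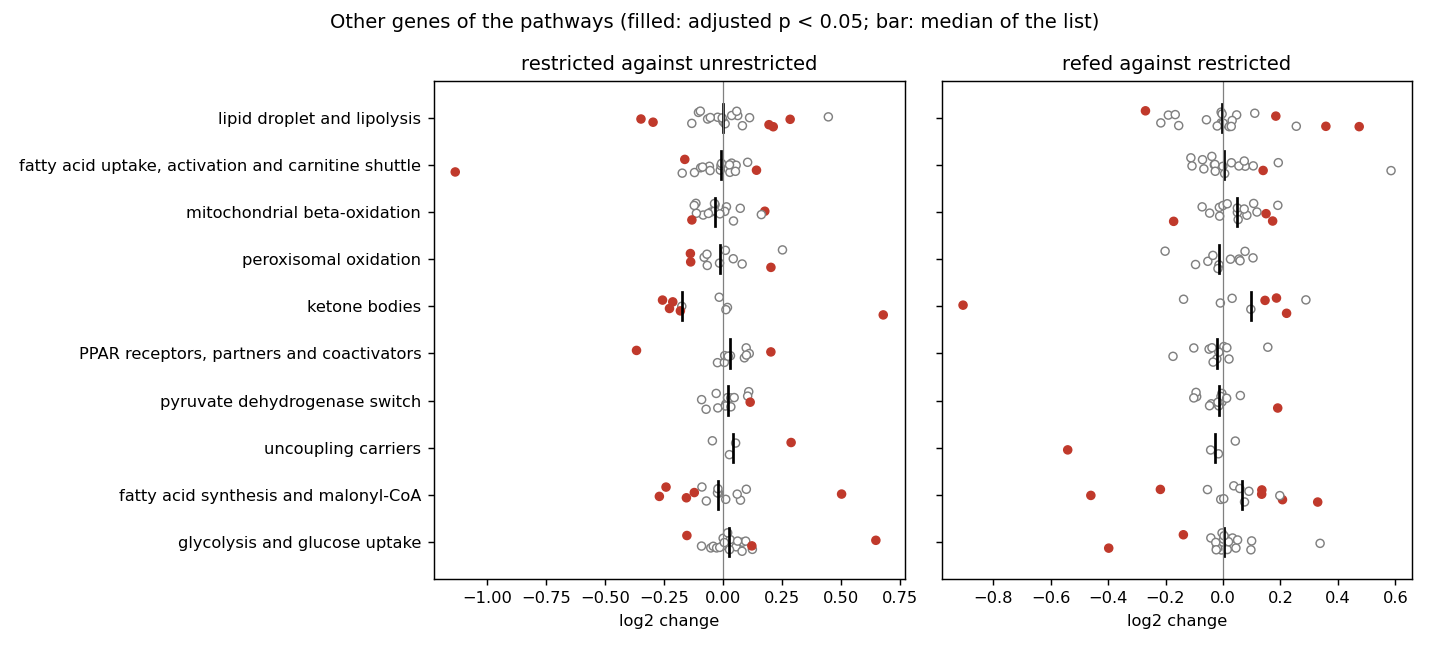
Log2 changes of 138 further genes in 10 lists after restriction (left) and after refeeding (right); filled points passed an adjusted p under 0.05 and bars are medians of a list. Medians lie between -0.17 and 0.04 after restriction, and Fabp7 at -1.14 is the lowest called point there.

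In 10 lists of 147 other genes of these pathways, 138 were tested, of which 13 rose after restriction, 17 fell and 108 were not called (background 7.31% higher and 7.84% lower). Among 21 tested genes of lipid droplets and lipolysis 3 rose, 2 fell and 16 were not called. Lipe, hormone-sensitive lipase, rose by 0.28 (11.7 ± 1.304 to 14.3 ± 1.76 CPM, mean ± SD, n = 16), Plin3 by 0.21 and Dgat2, which makes triglyceride, by 0.20. Plin2, another droplet coat protein, fell by 0.35 and Cideb by 0.30. The droplet coat genes Plin4 and Plin3 rose while Plin2 fell.

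Of 18 genes of fatty acid uptake, activation and the carnitine shuttle, 1 rose (Acsl3, an acyl-CoA synthetase, 0.14) and 2 fell: Fabp7, the fatty acid binding protein of astrocytes and radial glia, fell by 1.14, and Slc22a5, the carnitine carrier, by 0.16. Fabp7 went from 44.8 ± 10.5 to 20.6 ± 7.56 CPM (mean ± SD, n = 16). It was at 23.3 ± 3.97 CPM in refed mice, lower than in unrestricted mice by 0.94 on the log2 scale (edgeR adjusted p = 1.62e-05). All 16 refed but only 5 unrestricted libraries have numbers up to 28, and how far this difference depends on library numbers was not tested. Of 17 genes of mitochondrial beta-oxidation 1 rose (Eci2, 0.18), 1 fell (Decr1, 0.13) and 15 were not called, with a median change of -0.03. Of 11 peroxisomal genes 1 rose (Acox3, 0.20), 2 fell (Acaa1a and Decr2, both by 0.14) and 8 were not called.

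Among 9 genes of ketone bodies 4 fell. Oxct1, which starts ketone body use, fell by 0.18, and the monocarboxylate carriers Slc16a1, Slc16a7 and Slc16a6 fell by 0.23, 0.26 and 0.21. Of 11 genes of PPAR receptors, partners and coactivators, Rxra rose by 0.20, Rxrg fell by 0.37 and 9 were not called.

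Of 13 genes of the pyruvate dehydrogenase switch, to which Pdk4 belongs, only Dlat rose (0.12) and 12 were not called, and of 4 uncoupling carriers Ucp3 rose (0.29) and 3 were not called. Among 14 genes of fatty acid synthesis and malonyl-CoA, Acacb, whose product malonyl-CoA inhibits CPT1, rose by 0.50, and Scd2, Elovl5, Elovl6 and Me1 fell by 0.16, 0.24, 0.27 and 0.12. Among 20 genes of glycolysis and glucose uptake, the glucose carrier Slc2a1 rose by 0.65 and Aldoc by 0.12, Ldha fell by 0.15 and 17 were not called. On refeeding 14 of the 138 genes rose, 8 fell and 116 were not called (background 8.38% higher and 6.79% lower). None of the 138 was called between knockouts and controls.

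Markers of cell types moved with feeding state as well. Of all genes tested, 7.84% fell and 7.31% rose after restriction. After restriction 6 of 8 oligodendrocyte markers fell (summed level 9407 to 17691 CPM in unrestricted and 8393 to 15972 CPM in restricted mice), 5 of 8 microglial markers fell (272 to 321 and 233 to 308 CPM), and 3 of 8 mural cell markers fell. The median summed oligodendrocyte level went the other way from the marker calls, from 12010 to 13873 CPM. Of 8 endothelial markers 3 fell, Slco1a4 rose by 0.21 and 4 were not called. Of 8 astrocyte markers Gjb6 rose by 0.73, Aqp4 fell by 0.48, Sox9 fell by 0.20 and 5 were not called (summed level 1271 to 1574 and 1225 to 1621 CPM). Of 8 meningeal fibroblast markers 1 fell. No neuronal, ependymal, choroid plexus, skeletal muscle or red cell marker was called after restriction. On refeeding 6 of 8 oligodendrocyte markers rose and 1 fell, and 7 of 8 microglial markers rose (summed level 279 to 328 CPM in refed mice). Rises were also called for 4 of 8 meningeal fibroblast, 3 of 8 mural cell, 2 of 8 astrocyte and 1 of 8 endothelial markers. A fall was called for 1 astrocyte marker, and among all genes 8.38% rose and 6.79% fell on refeeding. All 6 red cell genes tested rose on refeeding, from a median summed level of 466 to 1091 CPM. The part of these shifts in the changes of the 9 genes was not tested.

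Adipocyte markers were close to 0. Adipoq and Lep had a median of 0 CPM in every feeding state, and Adipoq never exceeded 0.17 CPM. Of 8 such markers only Lipe, which brain cells also express, passed the filter on low counts. The summed level was 9.96 to 14.6 CPM in unrestricted, 11.2 to 18.3 in restricted and 9.73 to 23.9 in refed mice, with the highest again in male control refed replicate 1.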

How the data were processed

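The authors deposited 1 table of expected counts per gene symbol, without scaling between libraries. The submitters' processing notes name fastp, STAR, Salmon and mm39, with no role or strand setting. Expected counts were rounded, which changed a library total by at most 51.1. Of 56893 genes, 17352 passed filterByExpr of edgeR 4.0.16 (minimum count 10, minimum total 15) and held 99.9% of counts. TMM factors lay between 0.913 and 1.03.

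A quasi-likelihood model (glmQLFit, glmQLFTest, R 4.3.3) with 1 coefficient for each of the 12 groups was fitted to all 48 libraries, so that groups shared the estimate of spread. P-values were adjusted by Benjamini-Hochberg over all 17352 genes. Log2 CPM used a prior count of 2, and standard errors came from the F statistics. The steps were tested on simulated counts. Depth limits the precision of low genes. Replicate numbers follow record order and pair nothing. The labels also give ages and library numbers, which entered alternatives only.

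Positions and lengths came from GENCODE M39 (GRCm39), promoters from RefSeq (GRCm38.p6). The 9 genes, the pathway and marker lists and the tests were chosen with earlier results of these data known. Named pathway genes are at most 6 called genes per list with the smallest p-values, and likeness genes the 3 with the highest r. A result of the pathway lists is not reported here. Alternatives were RLE factors, no filter, age as a covariate, a block of library numbers (up to 28, from 29), limma 3.58.1 voom with sample weights, DESeq2 1.42.0, the groups compared alone and each library left out. Fits without doubted libraries were added after seeing the data. The 3 doubted libraries left out together were male control refed replicate 1, female knockout unrestricted replicate 2 and female control unrestricted replicate 2.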

Additional observations from a re-analysis of the deposited data

Results flagged for a closer look

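In 108 groups of 4 libraries (9 genes in 12 groups), 9 had a library whose gap to the nearest of the others exceeded the critical share of the group's range in Dixon's test, on the log2 scale. Chance flags about 1 in 20 such groups. Male control refed replicate 1 appears for 2 genes, at 94.6 CPM of Hadha against 65.2 to 67.4 CPM in the other 3, and at 1.08 CPM of Angptl4 against 1.44 to 1.51 CPM. This is the library with 5071 CPM of muscle markers. Male knockout unrestricted replicate 1, one of the pair with high Plin4, had 33.4 CPM of Ucp2 against 26.5 to 26.7 CPM.

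The others were below or above their groups by smaller amounts. Angptl4 in male knockout refed replicate 2 was 1.25 CPM against 2.24 to 2.33 CPM, from few counts. Acadl was 36.04 CPM in female knockout restricted replicate 3, against 40.6 to 41.1 CPM, and 30.3 CPM in male knockout restricted replicate 4, against 33.5 to 33.9 CPM. Cpt1a in female control refed replicate 3 was 29.6 CPM against 26.4 to 26.6 CPM. Pnpla2 in female knockout refed replicate 1 was 17.6 CPM against 20.7 to 21.2 CPM. Ucp2 in female knockout refed replicate 3 was 27.2 CPM against 33.1 to 34.2 CPM.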

How the results depend on the processing

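The rise of Plin4, Pnpla2, Angptl4, Pdk4 and Ucp2 after restriction and their fall on refeeding were called under every alternative run over both sexes and without each library in turn. Log2 changes with restriction ranged from 3.21 to 3.62 for Plin4 and from 0.97 to 1.02 for Pnpla2 when 1 library was left out. No paired analysis was possible because replicate numbers only follow record order. The number of the 9 genes called between refed and unrestricted mice was 2 with limma voom, 1 without the 2 unrestricted males, and 0 to 1 without single libraries. In males it was 1 with limma voom and 1 without the 2 males, and in females 1 (Plin4) when only the groups compared were fitted. Between males and females it was 1 without a filter. Between knockout and control refed males it was 0 to 1 without single libraries. Over all genes, calls between refed and unrestricted mice numbered 128, against 19 with the block, 894 with limma voom, 197 with DESeq2, 284 without the 2 males and 82 to 677 without single libraries, 677 being without male control refed replicate 2; knockout calls numbered 1, against 3 without a filter and 3 with DESeq2.

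Direction changed for some values that passed no test, and the cause was not tested. On refeeding, Ppara (0.00) was -0.0305 with age, -0.13 with the block, -0.0592 with limma voom, -0.0235 without 3 doubted libraries, -0.0307 without libraries over 100 CPM of muscle markers, and -0.0552 to 0.0623 without single libraries. Acadl (0.04) was -0.0132 with limma voom, -0.0101 without the 3 libraries, -0.0127 without the muscle libraries, and -0.0101 to 0.069 without single libraries. Between refed and unrestricted mice, Pnpla2 (0.04) was -0.0539 with the block, -0.0127 without the muscle libraries, and -0.0127 to 0.0604 without single libraries. Ucp2 (0.05) was -0.00566 and Ppara (0.14) -0.0226 with the block, and Cpt1a (-0.02) was 0.0229 without the 2 males and -0.0459 to 0.0081 without single libraries. No scaling moved the median of all genes by over 0.1. Counts of 8 to 83 limit what can be seen of Ppara and Angptl4.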
